A study of Mus musculus with 74 samples.

Results

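The 10 genes described here, Slc2a1, Hk2, Pgk1, Ldha, Pdk1, Bnip3, Adm, Ndrg1, Car9 and Egln3, are known targets of the hypoxia response and include enzymes and a transporter of glycolysis. They were chosen by name from 22066 gene symbols with group means in any of 5 comparisons of lung metastasis (Lung met) with primary mammary tumor (PT). All 10 had means in Her2, C3Tag and a table deposited under AKR, and 9 had them in BALB and SEAGn, where Pgk1 was not analysed here. Every one of these values passed the filter on low values, an average of both group means of at least 10. The question was whether metastases growing in the lung, an organ rich in oxygen, expressed less of these genes than the tumors in the mammary gland.

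RNA was sequenced from 74 samples of bulk tissue of female transgenic mice. The labels give 6 PT and 6 Lung met samples for each of the MMTV-Her2, MMTV-Myc, BALB/NJ x MMTV-PyMT (the strain is BALB/cJ in the methods), SEA/GNJ x MMTV-PyMT and AKR/J x MMTV-PyMT mice, and 7 of each for C3TAg. The MMTV promoter drives the oncogene (Her2, Myc or polyoma middle T, PyMT) mainly in mammary epithelium, the C3(1) promoter drives SV40 large T antigen, and every group, PT and Lung met alike, carries its transgene. Her2, C3Tag and Myc mice were of the FVB strain, and the PyMT mice were F1 progeny of an FVB PyMT male and a female of the named strain. In the Her2, C3Tag and Myc models, tumors of animals with single lesions were resected while small, and the animals were then aged further. The PyMT mice kept their tumors until the end. Tumor age and surgery cannot be told apart from tissue in the resected animals. By the sample titles, the PT and Lung met samples of each group come from the same animals. All tumors of an animal were combined and sampled, and whole metastases were used.

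What was analysed here are the authors' least-squares means (LSMeans) of normalized gene counts, 1 for each tissue and table. They carry no value of a single sample, so the spread between animals and the depth of the libraries are unknown, and no difference below was tested against replicate error. A gene is described as higher or lower in Lung met where its means differed by at least 1.5-fold, which is 0.585 on the log2 scale, and that wording is a description without a test. No group mean of Myc was analysed, so the members have no value there. The labels of the PyMT-F1 samples were not uniform: of 36 samples, the strain in the genotype label differed from the title in 23 and the source name from the title in 16, and the tissue label differed from the title in 0. Which strain the AKR-named table holds is not treated as settled. Fold changes computed from its means were compared with the supplementary pathway lists, within a tolerance of 0.005 relative plus 0.005 absolute. They equalled those listed for the C57BL/6J (BL6) cross for 272 of 279 gene entries and those of the other 5 crosses compared for 2 to 13 entries. By the same comparison the BALB table equalled BALB for 315 of 315 entries and the SEAGn table SEAGn for 321 of 322. The AKR cross was not among those compared. The AKR-named table may thus hold the BL6 cross. Its gene identifiers also follow another annotation than those of BALB and SEAGn. Each table was normalized separately, and no level is compared between tables.

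Cells short of oxygen stabilise the hypoxia-inducible factors (HIFs), whose alpha subunits are otherwise hydroxylated by prolyl hydroxylases and marked for destruction by the von Hippel-Lindau protein. HIFs bind short DNA elements at their targets and raise glucose uptake, glycolysis and lactate output, hold pyruvate back from mitochondria, and induce genes for pH control, vessel growth and mitophagy. Solid tumors often show this programme, and many tumors also run glycolysis in the presence of oxygen, driven by oncogenes.

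The members were not uniformly lower in Lung met, and gene positions are given below on GRCm38 from GENCODE M21. The log2 ratio of the Lung met mean to the PT mean had a median over the members of 0.25 for Her2, -0.24 for C3Tag, 0.44 for BALB, -0.50 for SEAGn and 0.08 for the AKR-named table. The medians of all genes tested were -0.0021, 0.01, 0.04, 0.03 and 0.0065 in the same order. In Her2, 0 of 10 members were lower and 2 were higher, against 3.39% of all 17058 genes lower and 4.97% higher. In C3Tag, 2 of 10 were lower and 1 was higher, against 5.27% and 14.0% of 18286 genes. In BALB, 1 of 9 was lower and 2 were higher, against 5.22% and 5.89% of 13403 genes. In SEAGn, 4 of 9 were lower and 1 was higher, against 6.92% and 6.50% of 13426 genes. In the AKR-named table, 0 of 10 were lower and 0 were higher, against 5.79% and 13.1% of 16756 genes. SEAGn thus held the most members past 1.5-fold on the lower side. With a filter at a mean of 50, which Bnip3 does not pass, its count is 3. At 2-fold the count of lower members was 2 in both SEAGn and C3Tag. By sign alone, 3 of 10 members lay below 0 in Her2, 7 of 10 in C3Tag, 1 of 9 in BALB, 6 of 9 in SEAGn and 5 of 10 in the AKR-named table. The shares of all genes below 0 were 50.5%, 48.5%, 42.0%, 45.4% and 49.3% in the same order. In bulk samples, fewer cells of a type and less RNA per cell cannot be told apart.

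**Figure D1:**
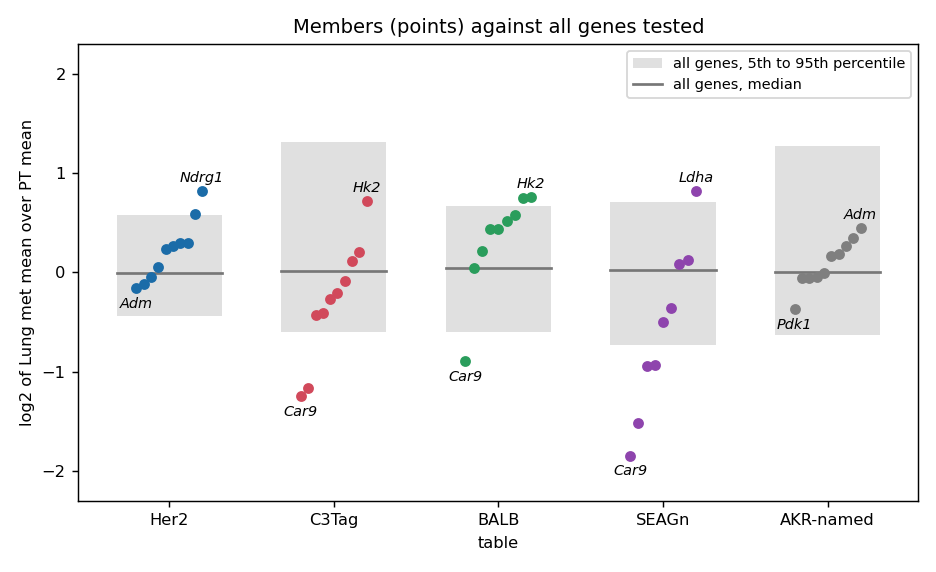
Log2 ratio of the authors' Lung met mean over their PT mean for each member (points) in the 5 tables, with the 5th to 95th percentile (grey box) and the median (line) of all genes tested. Car9 lay below the box in C3Tag, BALB and SEAGn, whereas every member of the AKR-named table lay inside it.

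Car9 (chr4:43506966-43513729), the membrane carbonic anhydrase that acidifies the space around hypoxic cells, showed the lowest ratio of any member in C3Tag, BALB and SEAGn. Its LSMean was 252 in PT and 70.1 in Lung met of SEAGn, a PT level 3.59-fold that of Lung met. In C3Tag the means were 344 and 145 (2.37-fold), and in BALB 226 and 122 (1.86-fold). Among all genes ordered from the lowest ratio up, Car9 stood at percentile 0.857 in SEAGn, 1.11 in C3Tag and 2.59 in BALB. The other tables did not share this pattern. In Her2 the means were 662 and 797, a log2 ratio of 0.27, and in the AKR-named table they were 873 and 841, a log2 ratio of -0.05. Car12, a related membrane carbonic anhydrase, had log2 ratios of 0.18 in Her2, -0.55 in C3Tag, -0.34 in BALB and -0.65 in the AKR-named table. It had no value here in SEAGn, where Car9 was lowest.

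Adm (chr7:110627661-110629820), which encodes the vasodilator peptide adrenomedullin, had means of 105 in PT and 36.6 in Lung met of SEAGn (2.85-fold lower) and of 404 and 181 in C3Tag (2.23-fold lower). These ratios stood at percentile 1.37 and 1.26 of all genes. In BALB, by contrast, the means of 227 and 233 lay close together. Her2 had 321 in PT and 287 in Lung met, and the AKR-named table had 162 and 221, the highest log2 ratio of a member there (0.45). Adm and Car9 were thus both lower in C3Tag and SEAGn, while in BALB Car9 alone of the 9 members was lower.

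Bnip3 (chr7:138890836-138909519), a mitochondrial receptor for mitophagy, was lower in SEAGn only, with means of 60.1 and 31.4 (log2 ratio -0.94). Elsewhere its log2 ratio was -0.12 in Her2, 0.21 in C3Tag, 0.21 in BALB and 0.35 in the AKR-named table. The PT mean of Bnip3 stood at percentile 82.5 of all genes in Her2, 68.4 in C3Tag and 62.6 in the AKR-named table but at 24.0 in SEAGn and 33.2 in BALB, the tables that use the BALB/cJ annotation, and the part of the annotation in this difference was not tested. Its relative Bnip3l had log2 ratios between -0.24 in SEAGn and 0.13 in the AKR-named table.

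Egln3 (chr12:54178981-54203860), a prolyl hydroxylase that is itself induced by HIF, had means of 1168 in PT and 614 in Lung met of SEAGn (1.90-fold lower). In BALB it went the other way, from 1356 to 1942, short of 1.5-fold. Its log2 ratio was -0.43 in C3Tag, 0.06 in Her2 and 0.26 in the AKR-named table. The related Egln1, the main oxygen sensor among the prolyl hydroxylases, had a log2 ratio of -0.01 in SEAGn and 0.45 in BALB.

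Ndrg1 (chr15:66929318-66969640), a stress-responsive gene often used to mark hypoxia, was higher in Lung met of Her2 (2861 in PT, 5051 in Lung met, 1.77-fold) and of BALB (2044 and 3426, 1.68-fold). In C3Tag the means were 7864 and 5907, and in SEAGn 1392 and 984, so the PT mean was the larger in both without reaching 1.5-fold. The AKR-named table had 3856 and 4322, a log2 ratio of 0.16.

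**Figure D2:**
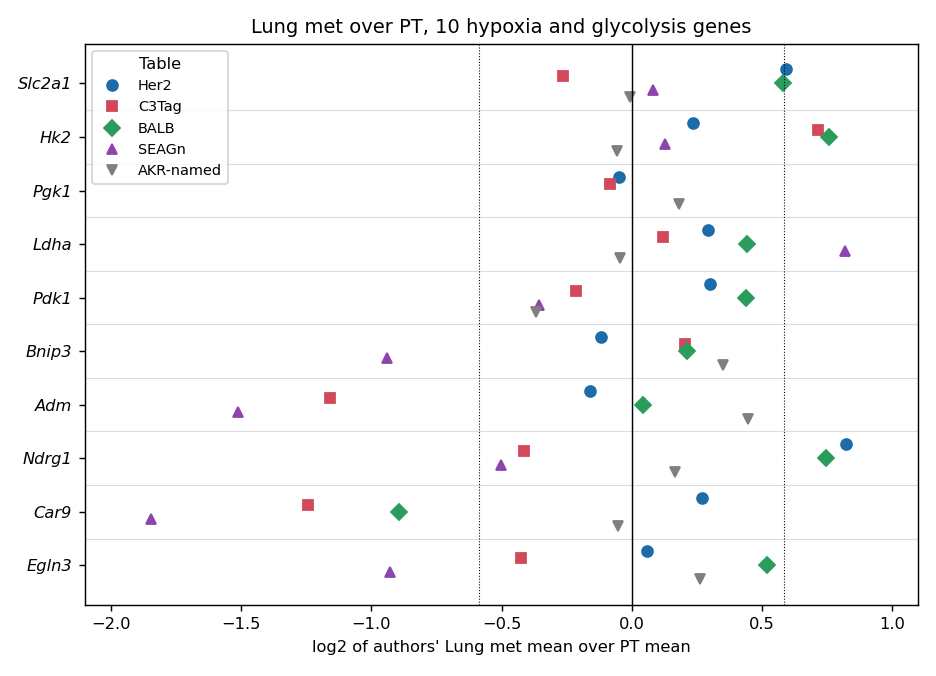
Log2 ratio of the authors' Lung met mean over their PT mean for each member, 1 symbol per table; dotted lines mark 1.5-fold. Car9, Adm, Bnip3 and Egln3 of SEAGn lie left of the lower line, whereas Ldha of SEAGn lies right of the upper one.

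Of the 48 values of members in the 5 tables, 7 were lower and 6 were higher, and 4 of the lower ones came from SEAGn. Of all genes, 3.39% to 6.92% were lower and 4.97% to 14.0% higher, depending on the table. The same genes recur in the tables, so these values are not independent. All 7 lower values belonged to Car9, Adm, Bnip3 and Egln3, while 4 of the 6 higher ones belonged to genes of glucose metabolism and the others to Ndrg1. Slc2a1 (chr4:119108711-119137983), the main glucose transporter of many tumor cells, had means of 3392 in PT and 5116 in Lung met of Her2 and of 1026 and 1532 in BALB. These were the values nearest to the threshold, 1.51-fold in Her2 just inside it and 1.49-fold in BALB just outside. In C3Tag the means were 3901 and 3249, in SEAGn 662 and 699.8, and in the AKR-named table they were 2635 and 2621. Slc2a3, a glucose transporter with high affinity, was higher in Lung met of C3Tag, SEAGn and the AKR-named table, with log2 ratios of 1.09, 0.94 and 1.46. Its means there were low, 133 in PT and 283 in Lung met of C3Tag and 33.7 and 92.7 in the AKR-named table. In SEAGn they were 12.7 and 24.3, near the filter of 10. The log2 ratio of Slc2a1 lay between -0.26 and 0.08 in each of these tables.

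Hk2 (chr6:82725025-82774454), the hexokinase that traps glucose in the cell, was higher in Lung met of C3Tag (1195 and 1962, 1.64-fold) and BALB (457 and 773, 1.69-fold). Of all genes, 11.4% had a higher ratio in C3Tag and 3.91% in BALB. Her2 had 1466 in PT and 1723 in Lung met. The log2 ratio was 0.13 in SEAGn and -0.06 in the AKR-named table. Hk1, the more widely expressed hexokinase, had 0.46 in C3Tag and 0.01 in BALB.

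Ldha (chr7:46841475-46855627), the lactate dehydrogenase subunit that favours lactate, had the highest level per kilobase of exon of all members in every table and tissue. It was higher in Lung met of SEAGn, with means of 3206 and 5649.6 (1.76-fold), while 6 of the 9 members there had a lower mean in Lung met. In Her2 its means were 26841 in PT and 32882 in Lung met, and in BALB they were 4736 and 6431. C3Tag had 12636 and 13718, and the AKR-named table had 43921 and 42598, so both tissues lay close together there. The log2 ratio of Ldha exceeded that of Ldhb, the subunit of oxidative tissues, by 0.44 in Her2, 0.66 in C3Tag, 0.63 in BALB, 0.80 in SEAGn and 0.12 in the AKR-named table. These pairs of related genes were chosen after the members' values were seen.

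Pgk1 (chrX:106187100-106203699), the glycolytic phosphoglycerate kinase, had log2 ratios of -0.05 in Her2, -0.08 in C3Tag and 0.18 in the AKR-named table. Its means were 7108 in PT and 6868 in Lung met of Her2. The annotation names 2 pseudogenes of Ldha and 3 of Pgk1, so counts of both may be shared with near-identical copies. Pdk1 (chr2:71873224-71903858), a kinase that keeps pyruvate out of the citric acid cycle, passed 1.5-fold in no table. Its log2 ratio was 0.30 in Her2, 0.44 in BALB, -0.21 in C3Tag, -0.36 in SEAGn and -0.37 in the AKR-named table, where it was the lowest member.

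**Figure D3:**
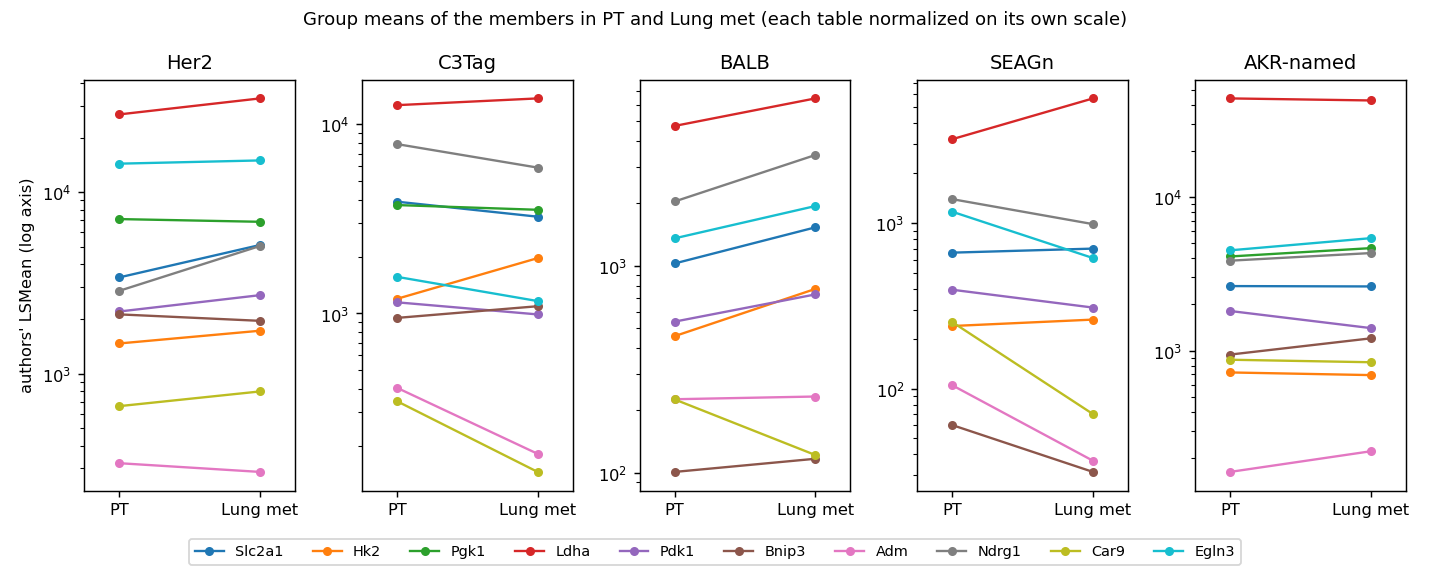
Authors' LSMean of each member in PT and Lung met on a log axis, 1 panel per table, each on its own scale. Ldha is the highest line in every panel, and in SEAGn the lines of Car9, Adm, Bnip3 and Egln3 slope down towards Lung met while that of Ldha slopes up.

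Within SEAGn the medians of the members differed by role, though not every gene followed its group. When grouped, after their values were seen, into glucose metabolism (Slc2a1, Hk2, Pgk1, Ldha, Pdk1) and the other HIF-induced members (Bnip3, Adm, Ndrg1, Car9, Egln3), the medians were 0.10 and -0.94, and all 5 of the latter lay below 0. C3Tag had -0.08 and -0.43, BALB 0.51 and 0.21, and Her2 0.29 and 0.06. The AKR-named table had the opposite order, -0.04 for glucose metabolism and 0.26 for the others. In SEAGn, Pdk1 of the glucose group also lay below 0 (-0.36), and Slc2a1 and Hk2 were close to 0 (0.08 and 0.13). Of the other glycolytic genes listed below, 3 were lower there and 1 was higher. Levels per kilobase also shifted in order, since Car9 went from the fifth place among 9 members in PT of SEAGn to the seventh in Lung met, and from the ninth among 10 in PT of C3Tag to the last in Lung met.

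The promoters of these genes were searched for the HIF core element, ACGTG or GCGTG on either strand, in RefSeq windows (GRCm38.p6) from 250 bases before to 50 bases after each start. A window was found for 9 members, 11 windows in all, and Ndrg1 had no entry. ACGTG was present in 7 of 11 windows and GCGTG in 6, and either in 10, whereas of all 32851 promoter windows 19.6% held ACGTG, 32.4% GCGTG and 43.8% either. The palindrome CACGTG holds ACGTG on both strands. A match is a description of the sequence and not a bound site. One match is shown for each of the members that were lower in SEAGn and for Hk2 and Slc2a1, which were not, so that the element can be seen in both kinds, with 12 bases on either side, 5′ to 3′ on the strand of the gene and the core in capitals (CACGT and CACGC are the reverse complements):
Car9 (chr4:43506996-43507024, + strand, 16 bases before the start): ctatttccgatgCACGTacagcccgtcca
Adm (chr7:110627591-110627619, + strand, 52 bases before the start): ggcaaatctgacCACGCccaccgtccgcc
Bnip3 (chr7:138909597-138909625, - strand, 105 bases before the start): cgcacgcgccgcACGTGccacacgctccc
Egln3 (chr12:54204087-54204115, - strand, 227 bases before the start): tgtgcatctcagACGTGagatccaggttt
Hk2 (chr6:82774490-82774518, - strand, 50 bases before the start): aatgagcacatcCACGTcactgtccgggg
Slc2a1 (chr4:119108697-119108725, + strand, 34 bases before the start): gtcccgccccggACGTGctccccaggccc
The windows of Adm, Bnip3, Egln3 and Hk2 lie upstream of the gene as GENCODE M21 places it, that of Slc2a1 spans the gene's first base, and that of Car9 lies inside the gene. The core was thus present in members that were lower in SEAGn and in members that were not.

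The wider pathway was described by 4 lists. Of 11 HIF subunits and oxygen sensors 10 had values in each table, of which 0 were lower. Higher were 1 in Her2 and the AKR-named table and 2 in each of the others. In BALB and SEAGn these counts include Hif3a, which passed the filter only through Lung met. Its means were 6.13 in PT and 26.4 in Lung met of BALB and 5.77 and 16.0 in SEAGn. Of all genes, 3.39% to 6.92% were lower and 4.97% to 14.0% higher by table. The 0 lower and the higher counts of C3Tag (14.0%) and the AKR-named table (13.1%) are thus near their background. Epas1, which encodes HIF-2 alpha, was higher in Lung met of all 5 tables, with log2 ratios of 0.61 in Her2, 1.78 in C3Tag, 0.91 in BALB, 1.39 in SEAGn and 1.82 in the AKR-named table. Its means were 859 in PT and 2259 in Lung met of SEAGn. Hif1a, the HIF-1 alpha subunit, was higher in C3Tag (0.63), where 13.0% of all genes had a higher ratio. It had -0.07, 0.52, 0.35 and 0.02 in Her2, BALB, SEAGn and the AKR-named table. Vhl, the von Hippel-Lindau gene, lay between -0.30 in SEAGn and 0.12 in Her2. Epas1 is also abundant in endothelium and lung epithelium, whose markers are given below.

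Of 31 other hypoxia-induced genes, SEAGn had values for 28, of which 6 were lower and 2 higher, with a median log2 ratio of -0.15. BALB had 29, with 0 lower and 4 higher and a median of 0.19. Of 30 in each of the others, Her2 had 0 lower and 4 higher, C3Tag 3 lower and 5 higher, and the AKR-named table had 2 lower and 7 higher. The shares of all genes higher were 4.97% in Her2, 14.0% in C3Tag, 5.89% in BALB, 6.50% in SEAGn and 13.1% in the AKR-named table, and those lower lay between 3.39% in Her2 and 6.92% in SEAGn, so the C3Tag count of higher genes is near its background. Ankrd37, a HIF-1 target, was higher in Her2, BALB, SEAGn and the AKR-named table, by up to 1.47 on the log2 scale in BALB, where its means were only 25.1 and 69.6. Stc2, the secreted glycoprotein stanniocalcin 2, was lower in C3Tag (670.3 in PT, 171 in Lung met), SEAGn (183 and 105) and the AKR-named table (574 and 234). In Her2 it had 287 in PT and 429.9 in Lung met, just short of 1.5-fold in the other direction, and in BALB 194 and 209.8. Vegfa, the vessel growth factor, was higher in the AKR-named table (1.03) and had 0.47 in Her2 and -0.24 in C3Tag. It had no value here in BALB and SEAGn.

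Of 19 other glycolytic enzymes and transporters, 18 had values in each table. In SEAGn 3 were lower and 1 was higher, and in BALB 0 were lower and 4 were higher. Slc16a3, the lactate exporter of hypoxic cells, had log2 ratios of opposite sign in these tables, -1.19 in SEAGn and 0.87 in BALB. Pfkfb3, which makes the activator of phosphofructokinase, had -1.19 and 0.57, and Eno2, a hypoxia-induced enolase, -1.87 and -0.13. These 3 were named after their values were seen. The means of Eno2 were low, 64.8 in PT and 17.7 in Lung met of SEAGn and 53.6 and 48.8 in BALB. Her2 had 1 lower and 1 higher, C3Tag 1 and 3, and the AKR-named table had 0 and 4, and read against the shares of all genes above, those of Her2 and C3Tag are near their background. Pfkfb4, a relative of Pfkfb3, was higher in C3Tag, BALB and the AKR-named table, and its log2 ratio was 0.44 in SEAGn. Slc16a1, a lactate and pyruvate transporter, was higher in Her2, C3Tag and BALB and had 0.29 in SEAGn. In C3Tag, 13.4% of all genes had a higher ratio than Slc16a1. Gapdh, a glycolytic enzyme often used as a reference, had 0.18 in Her2, -0.19 in C3Tag and 0.44 in the AKR-named table. It had no value here in BALB and SEAGn. Of 12 genes of pyruvate entry into mitochondria, 0 were lower in any table and 1 was higher, in Her2, where 4.97% of all genes were higher. Slc2a3, Pfkfb3, Pfkfb4, Tpi1, Aldoa and Eno1 stand in both the hypoxia and the glycolysis list and were counted in each where they had values.

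**Figure D4:**
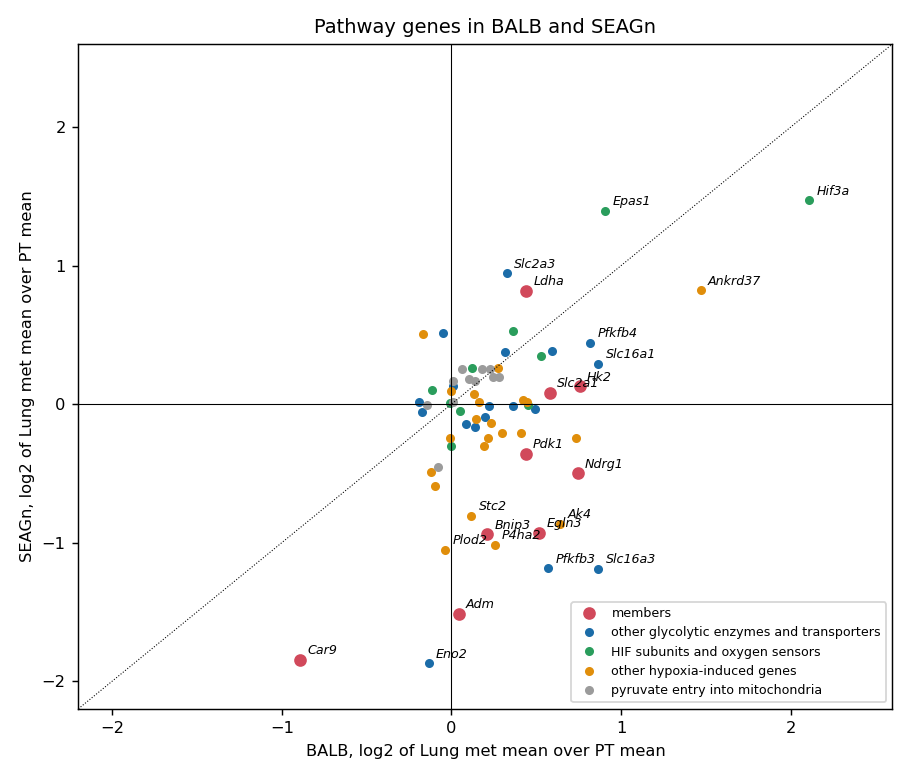
Log2 ratio of Lung met over PT in BALB (horizontal) against SEAGn (vertical) for the members (large points) and the 4 pathway lists; the dotted line marks equal ratios. Car9 lies at the lower left, whereas Adm, Egln3, Slc16a3 and Pfkfb3 lie at the lower right, with a negative ratio in SEAGn and a positive one in BALB.

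Markers of other cell types differed between the tissues. Of 10 lung epithelium markers 6 had values, with medians between 3.38 in Her2 and 4.58 in SEAGn. Of these, 5 or 6 were higher in each table and 1 was lower in BALB. None of them was at 0 in either tissue. Of all genes, 4.97% to 14.0% were higher by table, and 5.22% were lower in BALB. Ager, of type I alveolar cells, had means of 16.7 in PT and 579.8 in Lung met of SEAGn, and Lamp3, of type II cells, 3.7 and 577. Lamp3 passed the filter of 10 there only through Lung met, so its call as higher was set by the filter. How many of the other lung epithelium markers passed this way was not counted. The medians may thus rest in part on PT means near the filter. The summed level of these markers went from 2237 to 5404 in SEAGn and from 2274 to 21785 in C3Tag. In Her2 it went from 59015 to 58722, of which Aqp5 alone, a water channel, gave 57616 and 52674.

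Of 10 fibroblast markers, 8 were lower in Lung met in Her2, BALB, SEAGn and the AKR-named table and 5 in C3Tag. Of all genes, 3.39% to 6.92% were lower by table. In C3Tag 2 of these markers were higher and 2 in the AKR-named table. With 14.0% and 13.1% of all genes higher there, these 2 counts are near their background. The median of the fibroblast markers was lowest in SEAGn (-2.31), where their summed level went from 19426 in PT to 4874 in Lung met. It was -1.67 in BALB, -1.49 in Her2, -1.41 in the AKR-named table and -0.34 in C3Tag. Col1a1, the main fibrillar collagen, had means of 7343 and 1047 in SEAGn.

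Endothelium markers, 9 of 10 with values, had medians of 0.59, 1.43, 0.58, 0.65 and 1.64 in Her2, C3Tag, BALB, SEAGn and the AKR-named table. Single endothelium markers ranged from -1.71 to 2.07 in BALB and from -2.15 to 2.02 in SEAGn. Macrophage markers had medians between 0.27 in BALB and 0.93 in the AKR-named table, and single ones ranged from -1.64 to 5.83 in Her2. Erythroid markers were higher in all 6 that passed in Her2, C3Tag and the AKR-named table, while only 1 passed in BALB and in SEAGn. Of all genes, 4.97% were higher in Her2, 14.0% in C3Tag and 13.1% in the AKR-named table. Mammary epithelium markers had medians between -0.14 in the AKR-named table and 0.25 in BALB, and none was at 0. Both tissues hold mammary tumor, so these markers cannot tell the tissue labels apart. Single mammary markers ranged from -0.18 to 3.81 in Her2, -1.51 to 0.64 in C3Tag and -0.31 to 1.51 in BALB. They ranged from -0.34 to 1.69 in SEAGn and -0.69 to 0.13 in the AKR-named table. Proliferation markers had medians of -0.68 in C3Tag, -0.31 in Her2, 0.12 in BALB and 0.28 in SEAGn. In C3Tag 6 of 10 were lower, against 5.27% of all genes. The part of any of these cell types in the members' ratios was not tested.

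**Figure D5:**
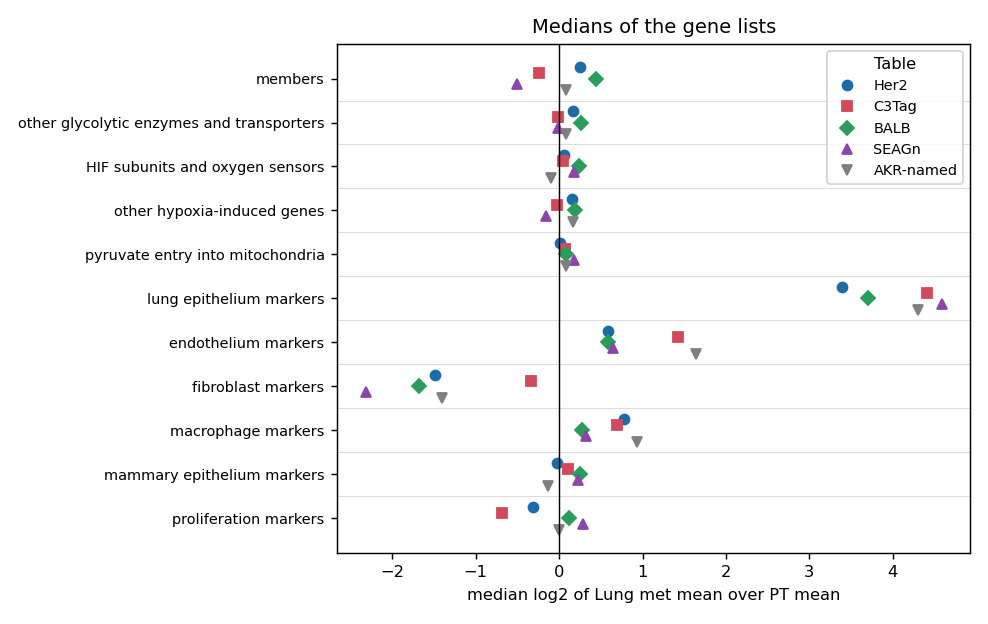
Median log2 ratio of Lung met over PT for the members, the 4 pathway lists and 6 marker lists, 1 symbol per table; erythroid markers are left out because only 1 passed in BALB and SEAGn. The lung epithelium medians lie between 3.38 and 4.58, whereas those of the 4 pathway lists lie between -0.15 and 0.27.

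Over the 5 tables, the genes whose log2 ratios were nearest to the members' medians (Euclidean distance, 11787 genes with a value in every table) were Lad1, Dnase1l2, Tmem231, Dzank1 and Mettl2, at distances of 0.283 to 0.318. Lad1, a basement membrane filament gene, had 0.02 in Her2, -0.22 in C3Tag, 0.48 in BALB, -0.35 in SEAGn and 0.02 in the AKR-named table.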

How the data were processed

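The series holds bulk RNA-seq of 74 PT and Lung met samples and 6 deposited tables. No sample title names the BL6 cross, so whether these samples underlie the AKR-named table is not settled. Per the labels' protocols, total RNA libraries were made with ribosomal depletion, whereas the methods describe mRNA libraries. The authors aligned the reads and counted them per gene in Partek Flow, normalized the counts by a method not given in the sources used here, and compared Lung met with PT with DESeq2 in the PyMT-F1 crosses and with Gene Specific Analysis in the Her2, C3Tag and Myc mice. The submitters' processing notes list STAR 2.7.8a, DESeq2 and mm39, while the methods name 2 older builds. The signal used here, deposited by the authors in 5 tables, is the least-squares mean of normalized counts of each tissue. Which samples entered each mean is not stated in the sources used here. The tables also hold the authors' p-values, FDR, ratios and fold changes, which were not used. To identify the cross of the AKR-named table, fold changes from the means were matched to the supplementary pathway lists. The Myc table holds only such values of a comparison and was not used. With no value of a single sample, no test, SD or interval was computed, depth is unknown, and precision cannot be given.

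From the means, log2 ratios of Lung met over PT were computed with pseudocount 0, for genes with a single row per symbol and an average of both means of at least 10. A gene was called at 1.5-fold. Levels between genes were divided by exon length (GENCODE M21) in kilobases. The BALB and SEAGn tables use a BALB/cJ annotation and were joined by symbol. Named genes were the members, genes of 4 pathway lists past 1.5-fold the same way in at least 3 of 5 tables, Hif1a, Epas1, Vhl, Egln1, Vegfa and Gapdh, 1 or 2 genes of the most shifted marker lists, and the 5 genes nearest to the members' medians. Slc16a3, Pfkfb3, Eno2, Car12, Bnip3l, Hk1, Ldhb and Hif3a fall outside this rule and were chosen after values were seen. The members and lists were chosen with earlier results of these data known. Promoter sequences are from RefSeq (GRCm38.p6). The computations were tested on simulated data. Software was Python 3.11.15 with numpy 2.4.6, pandas 2.3.3 and matplotlib 3.10.9. The alternatives tried were centring, a pseudocount of 1, a fold of 2, no filter, a mean of at least 50, the mean in place of the median and the median without Car9.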

Additional observations from a re-analysis of the deposited data

How the results depend on the processing

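Depth and replicate spread are unknown, so every ratio above is a description of group means, and ratios near 1.5-fold can fall on either side. No paired analysis was possible because the columns hold group means and carry no replicate numbers, and for the same reason no replicate could be left out. Of 48 log2 ratios of members, 0 changed sign after centring on the median of all genes (largest shift 0.0402) or with a pseudocount of 1 (largest shift 0.0251). At a fold of 2, the members higher in Lung met were 0 in Her2, C3Tag, BALB and SEAGn. Those lower were 0 in BALB, 2 in C3Tag and 2 in SEAGn, so SEAGn then held no more than C3Tag. The members' median after centring was -0.25 in C3Tag, 0.40 in BALB, -0.53 in SEAGn and 0.072 in the AKR-named table. Their mean in place of the median was 0.22 in Her2, -0.28 in C3Tag, 0.32 in BALB, -0.56 in SEAGn and 0.087 in the AKR-named table. Without Car9, an alternative chosen after seeing the data, the medians were 0.23, -0.21, 0.48, -0.43 and 0.16 in the same order. With a mean of at least 50 the SEAGn median was -0.43 and 3 members were lower there in place of 4, since Bnip3 did not pass. The direction of each median was the same under these alternatives.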
